A study of Homo sapiens with 2 samples.

Results

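The genes described here encode nucleolar ribosome biogenesis factors: the UTP, NOP, NOL, NOC and RRP families together with FBL, NCL, NPM1, DKC1, IMP3, IMP4, MPHOSPH10, DNTTIP2, WDR43 and BOP1. They were chosen by symbol alone, leaving out numbered pseudogenes, the pseudogene RRP7BP and antisense or readthrough names, which gave 48 of the 43337 genes in the table. Expression was measured by RNA sequencing in BT549, a human cell line from a triple-negative breast cancer, with 1 library of cells whose genotype label is SIK1_S435D and 1 library labelled SIK1_WT. SIK1 is a serine/threonine kinase of the AMPK-related family, and in S435D aspartate replaces a serine, an exchange often used to imitate phosphorylation. Both forms were overexpressed according to the design text, and parental cells were not analysed here. Each form had 1 library, so the spread between replicates is unknown, no difference could be tested, and each value below compares 2 libraries.

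The S435D library held 23520828 reads assigned to genes and the WT library 22366506. SIK1 itself was at 422 RPKM (reads assigned to a gene, scaled to its length in kilobases and to the depth of the library) in the S435D library and at 380.2 RPKM in the WT library, and reads of the construct and of the cell's own gene cannot be told apart. Mitochondrial genes held 5.15% of the reads in the S435D library and 4.32% in the WT library. Of the markers of mesenchymal cells, VIM was at 113 and 116 RPKM in the S435D and WT libraries. SPARC was at 12.9 and 14.7 RPKM and ZEB1 at 6.34 and 5.98 RPKM. CDH2 and FN1 stood between 1.16 and 2.25 RPKM in both libraries. The epithelial keratins KRT8 and KRT18 lay between 37.5 and 47.7 RPKM, KRT19 had 3 reads in the S435D library and 0 in the WT library, and CDH1 was below 1 RPKM. EPCAM was at 2.11 and 2.48 RPKM in the S435D and WT libraries. The hormone receptor genes ESR1 and PGR had at most 1 read in a library, whereas ERBB2 was at 10.05 and 10.6 RPKM. Of the 6 markers of other cells, PTPRC (blood cells), PECAM1 (endothelium) and ADIPOQ (adipocytes) had 0 reads in both libraries. CD3E had 2 reads in the S435D library and 0 in the WT library, VWF of endothelium had 6 and 8, and CD68 of macrophages was at 3.59 and 3.41 RPKM (185 and 167 reads).

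Ribosomes are assembled in the nucleolus, where RNA polymerase I transcribes a long ribosomal RNA precursor. Small nucleolar ribonucleoproteins (snoRNPs) modify that precursor, those of the box C/D class by methylation and those of the box H/ACA class by pseudouridylation. A large assembly around the U3 snoRNP, the small subunit processome, folds and cleaves the part that becomes the small subunit, and a separate set of factors matures the large subunit. Growing tumour cells make many ribosomes, and the transcription factor MYC is known to drive genes of this programme.

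The group of 48 genes was well expressed and almost the same in both libraries. All but NOL4 averaged 1 RPKM or more, the level taken here as expressed. Among the 47 expressed members the mean level ran from 1.82 RPKM for NOL4L to 1017 RPKM for NCL, with a median of 27.9 RPKM, against a median of 5.35 RPKM over 9761 expressed protein-coding genes. NCL and NPM1 alone carried 60.3% of the members' reads in the S435D library and 61.9% in the WT library. FBL, NOP14, DKC1, NOL7 and NOC2L followed, each above 120 RPKM in both libraries, and the order of these 7 genes differed only in that NPM1 came before NCL in the WT library. No chromosome held more than 6 members, the number on chromosome 2.

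**Figure D1:**
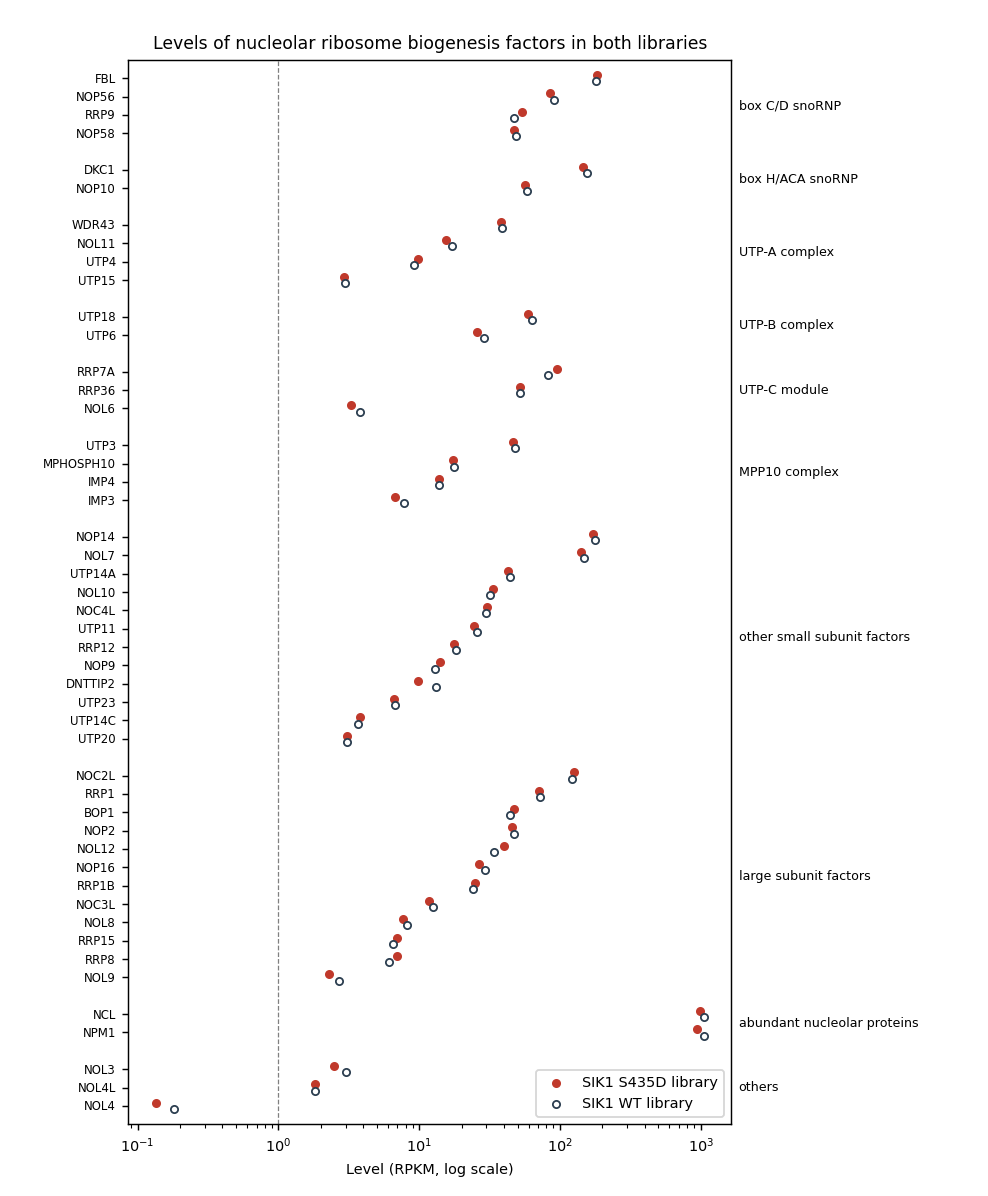
Level of each of the 48 members in RPKM (log scale), in the S435D library (filled) and the WT library (open), grouped by role; the dashed line marks 1 RPKM. The 2 points of a gene nearly coincide over the whole range, NCL and NPM1 stand near 1000 RPKM, and NOL4 is the single gene left of the line.

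Differences between the libraries were small throughout. The log2 ratio, taken as log2 of (S435D RPKM + 0.5) over (WT RPKM + 0.5), ran from -0.39 for DNTTIP2 to 0.24 for NOL12, with a median of -0.032. Over all 13290 expressed genes the median was -0.024, and over the protein-coding ones it was -0.020. Of the 47 members, 31 were lower in the S435D library and 16 higher, or 66.0% and 34.04%. Of all expressed genes 57.1% were lower and 42.9% higher, and of the protein-coding ones 56.6% and 43.4%. That split depends on scaling. After centring on the median of all expressed genes it was 25 lower and 22 higher, and with trimmed-mean scaling 24 and 23. Both scalings moved the median of all genes by 0.024.

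Counts past a fold below use the log2 ratio with its 0.5 RPKM added. At least 1.1-fold lower were 9 members (19.1%), against 21.0% of all expressed and 16.1% of protein-coding genes, and at least 1.1-fold higher were 4 members (8.51%), against 13.2% and 9.94%. After centring on the median of all genes these counts became 5 and 5. Past 1.2-fold there was 1 member lower, DNTTIP2, and 0 higher, against 7.92% and 4.43% of all expressed genes and 3.30% and 1.58% of protein-coding genes. NOL3, at 2.47 RPKM in the S435D library and 3.03 RPKM in the WT library, passes 1.2-fold as a plain ratio of RPKM but not as this log2 ratio. No member differed 2-fold, and neither did any expressed protein-coding gene, while 0.504% of all expressed genes were 2-fold lower and 0.339% 2-fold higher. A fold is given below as the ratio of RPKM with an exact 95% interval from the read counts, which covers counting error only. That interval lay below 1 for 14 members (29.8%), above 1 for 7 (14.9%), and included 1 for the other 26. Intervals below and above 1 were found for 14.7% and 8.71% of all expressed genes and for 15.9% and 9.72% of protein-coding genes. The width of an interval depends on the reads of a gene, the members stood at higher levels than these genes, and the part of depth in this difference was not tested.

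**Figure D2:**
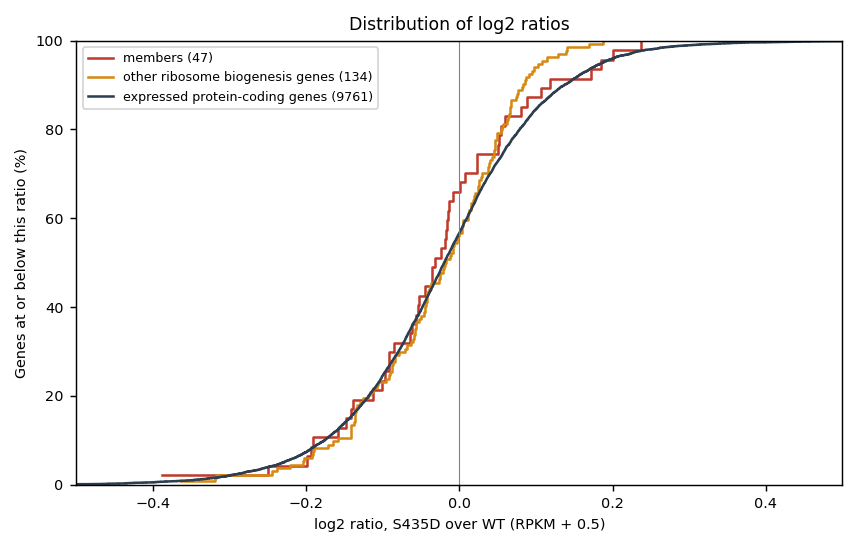
Cumulative share of genes (%) at or below each log2 ratio of S435D over WT, for the 47 expressed members, 134 other genes of ribosome biogenesis and 9761 expressed protein-coding genes. The 3 curves lie close together, with medians of -0.032, -0.018 and -0.020.

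The abundant nucleolar proteins NCL and NPM1 were both lower in the S435D library. NCL, nucleolin, an RNA-binding protein of the nucleolus (chromosome 2, 231453531 to 231483641, minus strand, GRCh38), was at 985 RPKM in the S435D library (160477 reads) and at 1049.6 RPKM in the WT library (162668 reads), a fold of 0.938 (0.932 to 0.945). NPM1, nucleophosmin, a histone and ribosome chaperone (chromosome 5, 171387116 to 171411137, plus strand), was at 949.7 RPKM (85513 reads) in the S435D library and 1052 RPKM (90086 reads) in the WT library, a fold of 0.903 (0.894 to 0.911). Both stayed lower under each scaling tried, but relative to genes of like GC content the log2 ratio of NCL was -0.038, against -0.092 as measured, and that of NPM1 -0.11, against -0.15. Summed over this pair, RPKM was 1934 in the S435D library and 2102 in the WT library, a ratio of 0.920. The other 46 members summed to 1878 and 1895 RPKM, a ratio of 0.991. The same ratio of sums was 1.045 over all expressed genes and 1.038 over protein-coding ones. The table also lists 42 numbered pseudogenes of NPM1, 27 of them with reads, and together these held 2362 reads in the S435D library and 2460 in the WT library, 2.76% and 2.73% of the count of NPM1 itself.

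The 4 box C/D proteins did not move in one direction. FBL, fibrillarin, the methyltransferase of these particles, was at 182 RPKM in the S435D library and 179.6 RPKM in the WT library (fold 1.02, 0.987 to 1.05). NOP56 and NOP58, paired core proteins, were at 85.3 and 47.2 RPKM in the S435D library and at 91.3 and 49.1 RPKM in the WT library, with folds of 0.935 (0.910 to 0.960) and 0.961 (0.918 to 1.01). RRP9, which belongs to the U3 particle, was the member of this class that was higher in the S435D library past 1.1-fold, at 54.1 RPKM against 47.5 RPKM in the WT library (fold 1.14, 1.07 to 1.21; 2008 and 1678 reads). SNU13, the protein of the same particles that the symbols did not select, was at 30.04 and 29.2 RPKM in the S435D and WT libraries (fold 1.03, 0.963 to 1.096). NOP56 shares 7.52% of its bases with snoRNA genes, of which SNORD86 had 242 reads in the S435D library and 320 in the WT library.

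Of the box H/ACA proteins, DKC1, dyskerin, the pseudouridine synthase mutated in X-linked dyskeratosis congenita, was at 145 RPKM in the S435D library and 157 RPKM in the WT library (fold 0.924, 0.903 to 0.946). NOP10, its small partner, was at 56.1 and 58.2 RPKM, a fold of 0.964 (0.869 to 1.07). The remaining partners, not selected by the symbols, had folds above 1: NHP2 was at 234 RPKM in the S435D library and 230.4 RPKM in the WT library (1.01, 0.984 to 1.05), and GAR1 at 23.7 and 22.6 RPKM (1.05, 0.964 to 1.14). The 4 subunits of this particle therefore lay on both sides of 1, and the interval of DKC1 alone excludes it.

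The UTP-A complex binds the start of the precursor and is needed for its transcription. Of its members 3 of 4 were lower as measured, against 57.1% of all expressed genes, and 1 of 4 after centring on the median of these genes. WDR43 was at 38.5 RPKM in the S435D library and 38.8 RPKM in the WT library, and UTP15 at 2.92 and 2.96 RPKM. UTP4, which is mutated in a childhood cirrhosis, was at 9.77 and 9.21 RPKM (fold 1.06, 0.979 to 1.15). NOL11 was the member farthest from 1, at 15.5 RPKM in the S435D library and 17.1 RPKM in the WT library (fold 0.905, 0.847 to 0.968). Of its partners outside the list, HEATR1 had a fold of 1.05 (0.978 to 1.13) and WDR75 one of 0.852 (0.745 to 0.974, from 422 and 471 reads), so this complex too held folds on both sides of 1.

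Both UTP-B members were lower in the S435D library under each scaling tried. UTP6 was at 25.9 RPKM in the S435D library and 29.002 RPKM in the WT library (fold 0.894, 0.856 to 0.934), and UTP18 at 59.1 and 63.0 RPKM (fold 0.938, 0.897 to 0.981). Their partners in the complex ran from 0.898 (0.814 to 0.992) for PWP2 over 0.958 (0.878 to 1.05) for TBL3 and 1.003 (0.951 to 1.06) for WDR3 to 1.04 (0.856 to 1.26) for WDR36. The widest of these intervals belongs to WDR36, which had 228 and 209 reads in the S435D and WT libraries.

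The UTP-C module held some of the widest differences, in opposite directions. RRP7A was at 94.9 RPKM in the S435D library and 82.5 RPKM in the WT library (fold 1.15, 1.12 to 1.19; 9109 and 7531 reads). NOL6, the human counterpart of yeast Utp22, was at 3.25 and 3.81 RPKM (fold 0.855, 0.751 to 0.972; 452 and 503 reads), and RRP36 at 51.9 and 52.5 RPKM (fold 0.990, 0.938 to 1.05). RRP7A shares 15.9% of its bases with SERHL on the other strand, which was lower in the S435D library (209 and 271 reads), and it has the pseudogene copy RRP7BP, at 6.81 and 6.63 RPKM. The kinase subunits CSNK2A1, CSNK2A2 and CSNK2B, also part of this module in yeast, had folds of 1.08 (1.01 to 1.15), 1.03 (0.961 to 1.11) and 1.07 (0.989 to 1.15).

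In the MPP10 complex, which holds the U3 RNA on the precursor, 3 of 4 members were within 1.05-fold. MPHOSPH10 was at 17.4 RPKM in the S435D library and 17.6 RPKM in the WT library, IMP4 at 13.8 and 13.7 RPKM (fold 1.01, 0.928 to 1.09), and UTP3 at 46.8 and 47.9 RPKM. IMP3 was at 6.76 RPKM in the S435D library and 7.81 RPKM in the WT library (fold 0.866, 0.755 to 0.993; 408 and 448 reads). Its level is uncertain, because 59.3% of its bases are shared with genes on the other strand. The largest of these stretches lies in SNX33, which had 226 reads in the S435D library and 281 in the WT library, and whether the libraries kept the strand is not given in the sources used here.

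Among the other factors of the small subunit, DNTTIP2 stood apart. DNTTIP2, the human counterpart of yeast Fcf2, a processome protein also known to bind terminal deoxynucleotidyl transferase, lies on chromosome 1 (93866283 to 93879918, minus strand). It was at 9.88 RPKM in the S435D library and 13.1 RPKM in the WT library (1748 and 2202 reads), a fold of 0.755 (0.709 to 0.804). It shares no bases with another gene of the table. Of the 9761 expressed protein-coding genes, 62 (0.635%) had a log2 ratio at or below its own. DNTTIP2 was picked as the lowest of the expressed members, so this share gives its position and is not a test. The next lowest member averaging 5 RPKM or more, IMP3, had a log2 ratio of -0.19 against -0.39 for DNTTIP2.

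The remaining small subunit factors lay within 1.1-fold of equality. NOP14, an abundant processome protein that overlaps the antisense gene NOP14-AS1, was at 172 RPKM in the S435D library and 177 RPKM in the WT library (fold 0.969, 0.947 to 0.992), and its partner NOC4L at 30.4 and 29.9 RPKM. NOL7 was at 142 and 147 RPKM (fold 0.963, 0.929 to 0.998). Of its bases, 18.6% are shared with RANBP9 on the other strand, which had 548 reads in the S435D library and 519 in the WT library. NOL10, the counterpart of yeast Enp2, was at 33.3 and 32.1 RPKM. NOP9 was the one in this set whose interval lay above 1, at 14.1 and 12.9 RPKM (fold 1.09, 1.02 to 1.16), but 36.9% of its bases are shared, mostly with CIDEB on the other strand, which had 1560 reads in the S435D library and 1370 in the WT library. UTP11 was at 24.6 and 25.8 RPKM, RRP12, a factor of small subunit export, at 17.7 and 18.2 RPKM, UTP23 at 6.64 and 6.76 RPKM, and UTP20, one of the largest proteins of the processome, at 3.05 RPKM in both libraries. Over the 25 members of the small subunit groups, the median log2 ratio was -0.024, against -0.024 over all expressed genes. As measured 17 were lower (68.0%, against 57.1% of all expressed genes) and 8 higher, and after centring 13 and 12.

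UTP14A and UTP14C are the clearest case of members that share sequence. UTP14A, on the X chromosome, encodes an activator of the processome helicase DHX37, and UTP14C is known as its retrocopy, on chromosome 13. Their coding sequences, of 2316 and 2301 bases in GENCODE release 29, are 94.8% identical over 2298 aligned bases, with an identical run of up to 169 bases. The stretch below is shown because it has 7 differences in 120 bases, the median over the 711 stretches of that length compared, and so shows what a read has to tell them apart. Capitals mark the bases that differ; the stretches lie at chrX:129911008-129911127 and chr13:52029040-52029159 (GRCh38, plus strand, coding exons of both genes).
UTP14A: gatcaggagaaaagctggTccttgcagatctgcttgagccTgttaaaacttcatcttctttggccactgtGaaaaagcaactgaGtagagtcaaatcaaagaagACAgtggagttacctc
UTP14C: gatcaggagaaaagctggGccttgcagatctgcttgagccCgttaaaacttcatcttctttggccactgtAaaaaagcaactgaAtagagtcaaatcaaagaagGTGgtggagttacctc

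UTP14A was at 42.5 RPKM in the S435D library and 44.4 RPKM in the WT library (fold 0.958, 0.917 to 1.0005). UTP14C was at 3.82 and 3.67 RPKM (fold 1.04, 0.915 to 1.18), and 28.8% of its bases are shared with ALG11. Reads that match both copies could have been counted for either or dropped, so the level of UTP14C in particular is uncertain. DHX37, the helicase that UTP14A activates, was among the higher of the companion genes in the S435D library, at 13.2 RPKM against 12.0 RPKM in the WT library (fold 1.11, 1.04 to 1.18).

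The large subunit factors split evenly into 6 lower and 6 higher in S435D cells (median log2 ratio 0.017), and into 5 and 7 after centring. Of all expressed genes 57.1% were lower and 42.9% higher as measured. NOL12, an RNA-binding factor related to yeast Rrp17, had the highest fold of all members, at 39.97 RPKM in the S435D library and 33.8 RPKM in the WT library (3374 and 2717 reads; fold 1.18, 1.12 to 1.24). Of the protein-coding genes, 225 (2.31%) had a ratio at or above it, a share that likewise gives the position of a member picked for its rank. NOL12 (chromosome 22, 37681673 to 37693478, plus strand) shares 22.0% of its bases with an unnamed clone-derived gene on the same strand, which had 3478 reads in the S435D library and 2787 in the WT library. The counts of these overlapping genes are thus nearly equal, and which of them the reads over the shared bases come from cannot be told apart here.

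Further large subunit factors were higher in the S435D library. RRP8, a methyltransferase of the large ribosomal RNA, was at 6.91 RPKM in the S435D library and 6.08 RPKM in the WT library (fold 1.14, 1.04 to 1.24). BOP1, which forms the PeBoW complex with PES1 and WDR12, was at 47.5 and 44.0 RPKM (fold 1.08, 1.03 to 1.13), while PES1 had a fold of 0.987 (0.966 to 1.01) and WDR12 one of 0.915 (0.847 to 0.989). The 3 subunits of this complex thus had an interval above 1, one that includes 1 and one below it. NOC2L was at 126 and 122 RPKM (fold 1.04, 1.01 to 1.06), RRP15 at 7.01 and 6.56 RPKM (fold 1.07, 0.986 to 1.16) and RRP1B at 25.1 and 24.0 RPKM (fold 1.04, 0.993 to 1.095).

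Lower in the S435D library were NOP16 and NOL9. NOP16, a factor of early large subunit particles, was at 26.5 RPKM in the S435D library and 29.3 RPKM in the WT library (fold 0.905, 0.847 to 0.966), with 19.95% of its bases shared with ARL10 and HIGD2A on the other strand. NOL9, a polynucleotide kinase that acts on the spacer removed from the large subunit precursor, was at 2.29 and 2.69 RPKM (fold 0.853, 0.743 to 0.980; 393 and 438 reads). NOC3L was at 11.7 and 12.6 RPKM (fold 0.930, 0.859 to 1.01), and NOL8 at 7.70 and 8.20 RPKM. RRP1, at 71.1 and 72.0 RPKM, and NOP2, an RNA cytosine methyltransferase, at 46.0 and 47.0 RPKM, stayed within 1.05-fold.

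A few selected symbols do not belong to ribosome biogenesis by what is known of them. NOL3 encodes a repressor of apoptosis with a CARD domain and was at 2.47 RPKM in the S435D library and 3.03 RPKM in the WT library, from 174 and 203 reads (fold 0.815, 0.662 to 1.003). NOL4L was at 1.81 and 1.83 RPKM (fold 0.993, 0.861 to 1.14), and NOL4 had 18 reads in the S435D library and 23 in the WT library. Without these 3 genes the median log2 ratio of the group remained -0.032, with 29 lower and 16 higher.

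**Figure D3:**
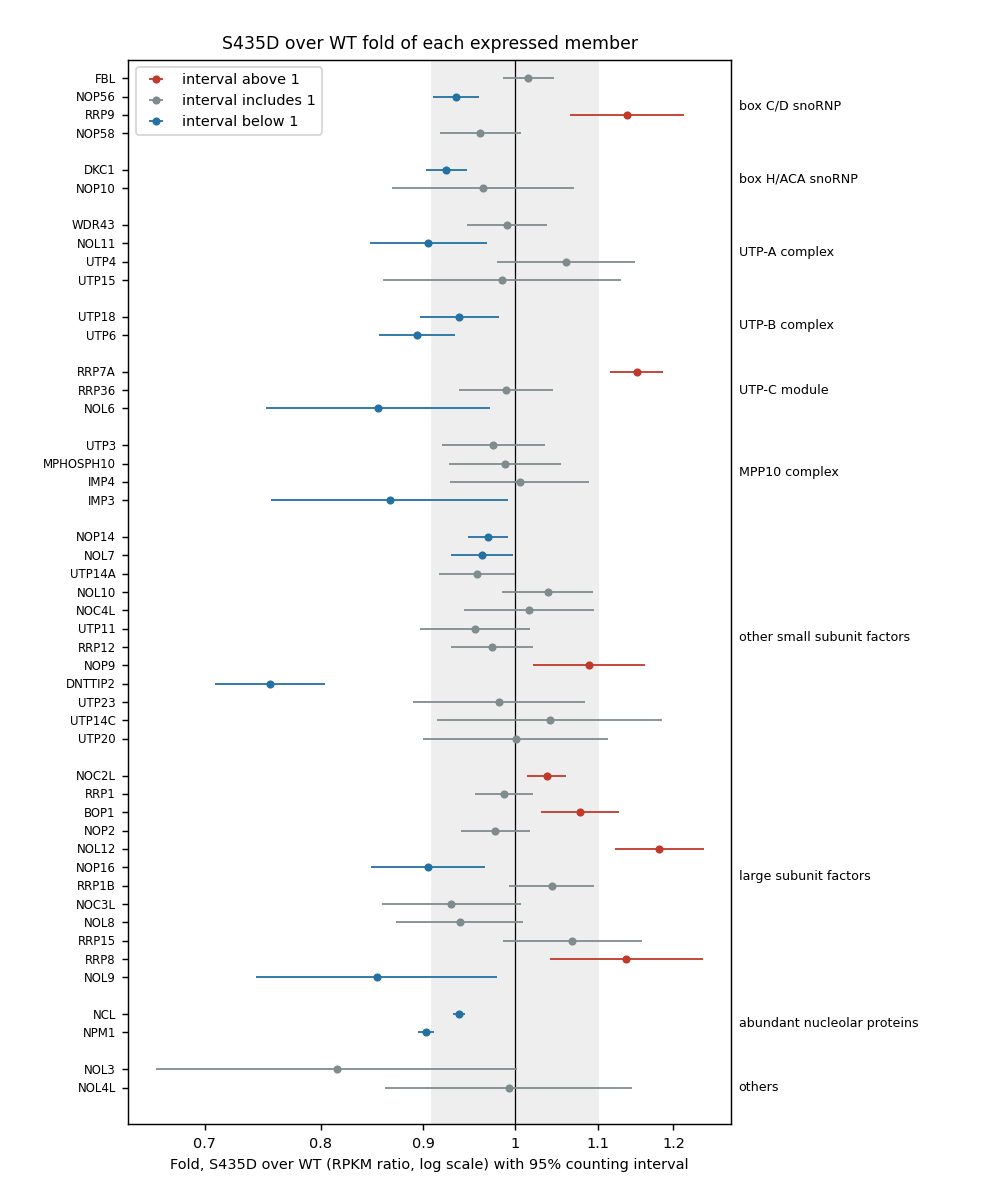
Fold of S435D over WT (ratio of RPKM, log axis) of the 47 expressed members by role, with 95% counting intervals; the shaded band spans folds within 1.1 of equality. Most points lie in the band, DNTTIP2 stands farthest to the left at 0.755 and NOL12 farthest to the right at 1.18, and the intervals are narrowest for NCL and NPM1.

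The promoters of the members at the ends of this range were read next, with a pair that carries known motifs. RefSeq windows of the 250 bases before a gene's start (GRCh38.p14) were found for 41 of the 48 members by symbol, some with more than 1 start, and BOP1, MPHOSPH10, NOL10, NOP58, RRP12, RRP1B and UTP23 had no entry. CACGTG, the E-box that MYC and its partner MAX can bind and which reads the same on both strands, occurred in 8 of 41 members (19.5%), against 7.73% of all 27305 genes with a window and 9.73% of protein-coding ones, a gene being counted once if any of its windows held the motif. CCGGAAG on either strand, the core bound by ETS factors, occurred in 12 of 41 (29.3%), against 10.2% and 14.0%. CCAAT on either strand occurred in 14 of 41 (34.1%), against 36.997% and 40.2%, and TATAAA on either strand in 1 of 41 (2.44%, UTP20), against 13.05% and 11.9%. The expressed members with CACGTG had a median log2 ratio of -0.053 and those without it -0.033, and for CCGGAAG the medians were -0.044 and -0.038. With CCAAT the median was -0.092 over 13 expressed members, NCL and NPM1 among them, and without it -0.032 over 27. For these motifs, medians over all genes with a window are not given here. MYC was at 34.7 RPKM in the S435D library and 37.4 RPKM in the WT library.

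The windows of DNTTIP2 (lowest ratio) and NOL12 (highest ratio) hold neither CACGTG nor CCGGAAG, as is the case for most of the 41 members. Those of UTP18 and NOP10 hold both, and NOL7 (fold 0.963) and UTP4 (fold 1.06), not shown, also have both. Capitals mark CACGTG and also CCGGAAG or its reverse complement, each line running 5′ to 3′ on the strand of the gene. The positions are chr1:93879207-93879456 (minus) for DNTTIP2, chr22:37686093-37686342 (plus) for NOL12, chr17:51260296-51260545 (plus) for UTP18 and chr15:34343137-34343386 (minus) for NOP10. RefSeq starts can lie inside the longer gene of the table, as for DNTTIP2 and NOL12. A match describes letters in these windows and is not a measured binding site.
DNTTIP2: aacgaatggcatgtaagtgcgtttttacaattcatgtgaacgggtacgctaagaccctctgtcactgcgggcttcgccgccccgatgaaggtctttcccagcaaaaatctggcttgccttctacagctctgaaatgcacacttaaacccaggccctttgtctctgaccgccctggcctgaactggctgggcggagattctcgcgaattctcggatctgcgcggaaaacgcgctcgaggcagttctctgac
NOL12: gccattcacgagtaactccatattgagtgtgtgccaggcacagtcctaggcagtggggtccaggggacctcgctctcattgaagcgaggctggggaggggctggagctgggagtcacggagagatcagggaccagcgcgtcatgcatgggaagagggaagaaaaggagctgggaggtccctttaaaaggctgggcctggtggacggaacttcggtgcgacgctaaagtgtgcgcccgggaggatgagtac
UTP18: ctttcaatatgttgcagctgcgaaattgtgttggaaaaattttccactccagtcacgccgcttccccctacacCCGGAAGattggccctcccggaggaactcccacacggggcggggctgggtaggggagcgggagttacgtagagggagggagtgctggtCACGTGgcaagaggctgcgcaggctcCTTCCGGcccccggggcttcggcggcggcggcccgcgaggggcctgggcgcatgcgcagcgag
NOP10: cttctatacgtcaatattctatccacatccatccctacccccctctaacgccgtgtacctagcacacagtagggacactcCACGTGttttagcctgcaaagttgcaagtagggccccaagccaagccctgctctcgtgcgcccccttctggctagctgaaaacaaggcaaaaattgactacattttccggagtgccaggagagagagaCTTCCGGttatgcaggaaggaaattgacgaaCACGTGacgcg

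Of 135 other genes of ribosome biogenesis taken from textbook complexes, 134 were expressed. In S435D cells 76 of them were lower (56.7%) and 58 higher (43.3%), near the 57.1% and 42.9% of all expressed genes. The median log2 ratio of the 134 companion genes was -0.018. Of these, 19 (14.2%) were at least 1.1-fold lower and 4 (2.99%) at least 1.1-fold higher, against 16.1% and 9.94% of protein-coding genes. Past 1.2-fold there were 3 lower (2.24%) and 0 higher, against 3.30% and 1.58%. The partners of the UTP complexes had a median of 0.038, the other small subunit factors 0.00097, the other large subunit factors -0.025, and the snoRNP partners and assembly factors 0.015. Centring on the median of all expressed genes turned the median over all companions to 0.0062.

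The exosome and the RNA polymerase I machinery had the lowest medians of these groups. Of 13 exosome genes, whose complex trims the ends of ribosomal precursors, 8 were lower in S435D cells (61.5%, near the 57.1% of all expressed genes), or 7 after centring, and the median log2 ratio was -0.084. EXOSC8 was at 5.21 RPKM in the S435D library and 6.63 RPKM in the WT library (fold 0.787, 0.692 to 0.893), EXOSC1 at 7.16 and 8.57 RPKM (0.835, 0.744 to 0.937) and EXOSC2 at 32.3 and 36.9 RPKM (0.875, 0.834 to 0.918). Higher in the S435D library were 5 of the 13, among them DIS3 with a fold of 1.06 (0.996 to 1.13). Of 15 genes of RNA polymerase I transcription, 12 were lower as measured (80%, against 57.1% of all expressed genes) and 10 after centring, with a median of -0.087 as measured. POLR1C, a subunit shared with RNA polymerase III, was at 14.1 and 16.8 RPKM (0.843, 0.772 to 0.921), and UBTF, which binds the ribosomal DNA promoter, at 63.2 and 68.1 RPKM (0.927, 0.903 to 0.953), whereas the largest subunit, POLR1A, had a fold of 1.04 (0.980 to 1.09). ESF1, a nucleolar factor of the small subunit, was also among the 4 lowest averaging 5 RPKM or more (0.873, 0.818 to 0.931). The highest at that level were EIF6, an anti-association factor of the large subunit (1.13, 1.02 to 1.24), DHX37, AAMP (1.101, 1.08 to 1.13) and WDR18 (1.08, 1.01 to 1.17).

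**Figure D4:**
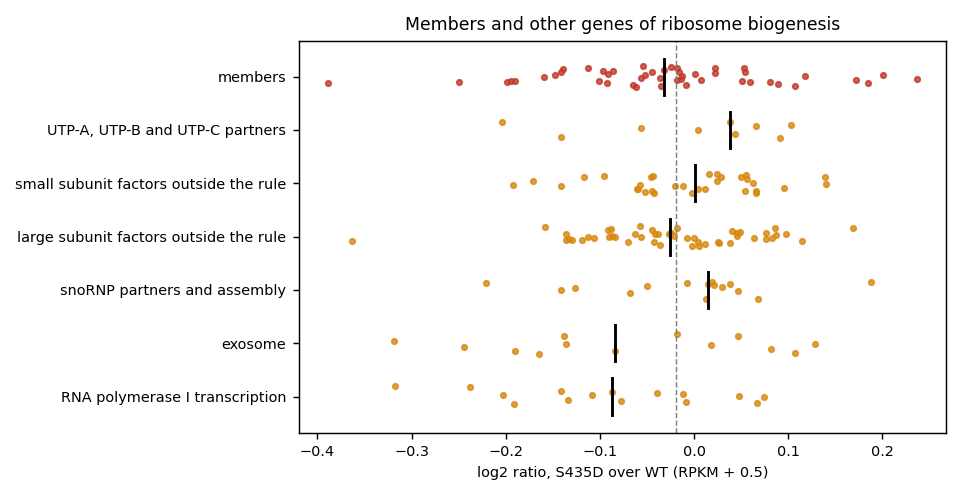
log2 ratio of S435D over WT (RPKM + 0.5) of the 47 expressed members and of 134 other expressed genes of ribosome biogenesis by group; each point is a gene, the black bars are group medians and the dashed line is the median of protein-coding genes (-0.020). The exosome and RNA polymerase I groups have medians of -0.084 and -0.087, and each group spans both sides of 0.

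The ratio also varied with base composition across the whole table. In 10 bins of the GC content of the longest transcript, the median log2 ratio of expressed protein-coding genes ran from -0.054 (46.8 to 49.9% GC) to 0.028 (62.1 to 74.5% GC). The members had a median GC content of 48.4%, against 49.9% over protein-coding genes, and taken relative to their own GC bin their median log2 ratio was -0.0072, with 27 lower and 20 higher. DNTTIP2, at 39.9% GC, and RRP9, at 60.9% GC, lie in bins whose medians are -0.016 and 0.013. The part of base composition in these differences was not tested beyond this adjustment.

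**Figure D5:**
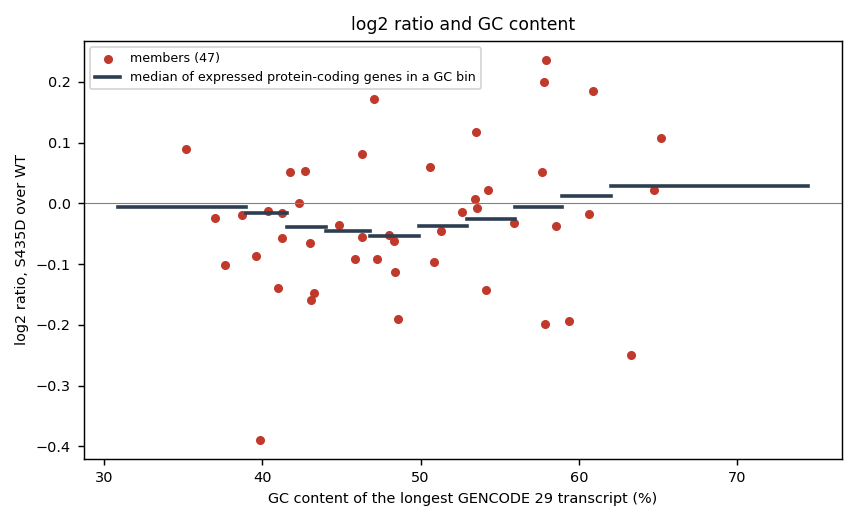
log2 ratio of S435D over WT of the 47 expressed members (points) against the GC content (%) of the longest transcript, with the median of expressed protein-coding genes in each of 10 GC bins (bars). The bars run between -0.054 and 0.028, and the members scatter on both sides of them, from -0.39 for DNTTIP2 to 0.24 for NOL12.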

How the data were processed

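RNA was sequenced from 2 libraries, 1 of the S435D and 1 of the WT form. The authors deposited RPKM for 43337 genes beside gene positions and lengths, per the file headers. The sources used here do not give the aligner, the counting program, the strand setting, the build or the library protocol. Positions of all 48 members equal those of GENCODE release 29 (GRCh38). RPKM times length was a whole multiple of 1 step per library within 0.01 reads for 100% of values, so reads were recovered. A single read over 2 kb is worth 0.0213 RPKM in the S435D and 0.0224 RPKM in the WT library. Where genes overlap, how the authors assigned reads is not known.

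Computed here were the log2 ratio with a pseudocount of 0.5 RPKM, which understates differences of low genes, the plain RPKM fold with Clopper-Pearson 95% intervals given both totals, and counts past 1.1-fold, 1.2-fold and 2-fold among genes averaging 1 RPKM or more. Recovery of reads, the intervals and the size rule were tested on simulated counts. These held counting error only, so that test says nothing about variation between libraries. A symbol counted as a pseudogene where P and digits follow a complete member symbol, since the letters of the rule would otherwise drop NOP2 or UTP3; RRP7BP was tried as an alternative. All members are named; folds are given for the 8 lowest and the 8 highest averaging 5 RPKM or more, the 3 most abundant, the lowest and highest of each role group and a few partners and others chosen after their values were seen. The members and lists were chosen with earlier results of these data known, and NOP53 is listed under the older symbol GLTSCR2, which the rule does not select. Tried in turn were 0.1 and 1 RPKM as pseudocount, omitting the filter, a filter at 5 RPKM, 3 scalings, GC bins and other member sets. Tables were handled with pandas 2.3.3 and numpy 2.4.6 in Python 3.11.15, intervals came from SciPy 1.17.1, and matplotlib 3.10.9 drew the plots.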

Additional observations from a re-analysis of the deposited data

How the results depend on the processing

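The median log2 ratio of the members stayed below 0 under all 13 alternatives, between -0.033 and -0.0055, and DNTTIP2 remained the lowest of them. Over all expressed genes the median lay between -0.026 and 0 under the same alternatives. After centring, which sets that median to 0, the members had -0.0077 with 25 lower and 22 higher. With the trimmed mean they had -0.0055 with 24 lower and 23 higher. The count at least 1.1-fold lower, 9 of 47, became 5 after centring, 5 with a trimmed mean of log ratios, 4 relative to GC bins and 5 of the 23 members that share no bases and have no copy, which also left 15 lower, 8 higher and 2 at least 1.1-fold higher; the fewer members account for that last set. The count 1.2-fold lower became 2 with a pseudocount of 0.1 RPKM and relative to GC bins, where NOL3, at a log2 ratio of -0.28 in each, joined DNTTIP2. The median of NCL and NPM1, -0.12, became -0.096 after centring, -0.093 with the trimmed mean, -0.11 over nuclear reads only and -0.074 relative to GC bins. The median of the UTP-C module, -0.014, became 0.093 at a mean of at least 5 RPKM and -0.20 without overlapping members, which leaves NOL6, and that of the box C/D proteins, -0.017, became 0.10 without NOP56 and NOP58, which overlap snoRNAs. No paired analysis was possible because each form has 1 library, and leaving out a library leaves no comparison. Depth limits NOL4 most, with 18 reads in the S435D library and 23 in the WT library. Leaving out members with pseudogenes and adding GLTSCR2, both chosen after seeing the data, gave medians of -0.024 and -0.028.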
